A study of Rattus norvegicus with 9 samples.

Results

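The 8 genes described here encode proteins that receive, transmit or end the signal of noradrenaline and adrenaline in the heart: the monoamine oxidases Maoa and Maob, the receptors Adrb1, Adra1a and Adra1b, the receptor kinase Grk5, and the adenylyl cyclases Adcy5 and Adcy6. They were picked by gene symbol from the 22601 genes of a table of RNA sequencing values of rat heart tissue, and all 8 passed the filter on low values, which left 11717 genes. The table holds 9 libraries of hearts from rats aged 48 weeks. SHR+Allisartan rats, called treated SHR below, were spontaneously hypertensive rats (SHR), a strain that develops high blood pressure, given allisartan in water by mouth for 34 weeks (3 libraries). Allisartan blocks the angiotensin II type 1 receptor. The SHR group (3 libraries) and the Wistar Kyoto group (WKY, 3 libraries), a related strain with normal blood pressure, got water alone by the same route and for the same time. Strain and hypertension cannot be told apart in a comparison with WKY, and the labels do not say that each library came from its own rat, and a p-value here weighs differences against library spread only.

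Sympathetic nerves release noradrenaline in the heart. Beta-1 receptors on cardiomyocytes couple through the stimulatory G protein to adenylyl cyclase, which makes cyclic AMP and so activates protein kinase A, while alpha-1 receptors couple through Gq to phospholipase C. Receptor kinases and arrestins switch active receptors off. Catecholamines are taken up by transporters and broken down, among other enzymes, by the monoamine oxidases of the outer mitochondrial membrane, which release hydrogen peroxide as they work.

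Values are FPKM (fragments per kilobase of transcript scaled to the number of mapped fragments) as deposited, divided by 1 factor per library, and are given by library or as mean ± SD (n = 3 libraries per group throughout). Since FPKM are per length, levels of different genes in a library can be set side by side. A change is 1 group's mean of log2(rescaled FPKM + 0.5) less that of the other, with the standard error (SE) from limma, and a gene was called where the limma p adjusted by Benjamini-Hochberg over all 11717 tested genes was under 0.05. The listed values summed to 359207 to 388172 FPKM per library and 14279 to 14948 genes were above 0, but the number of reads behind a value is unknown. The defining markers of ventricular cardiomyocytes were high in every library. In bulk tissue, fewer cells of a type and less RNA per cell cannot be told apart.

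Of the 8 genes, 5 were called between treated SHR and SHR (3 higher and 2 lower), where 33.5% of all tested genes were called. Of all tested genes 16.1% were called higher and 17.4% lower there. Between SHR and WKY 3 were called (2 higher and 1 lower), against 21.9% of all tested genes, 11.9% higher and 9.93% lower. Between treated SHR and WKY 1 was called, higher, against 24.3% of all tested genes, 12.9% higher and 11.4% lower. The values of both groups did not overlap for 6 of the 8 genes between treated SHR and SHR (46.4% of all tested genes), for 5 between SHR and WKY (40.9%) and for 1 between treated SHR and WKY (40.1%). The SHR libraries enter the first 2 of these comparisons with opposite sign, so a gene that stands apart in SHR tends to be called in both.

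**Figure D1:**
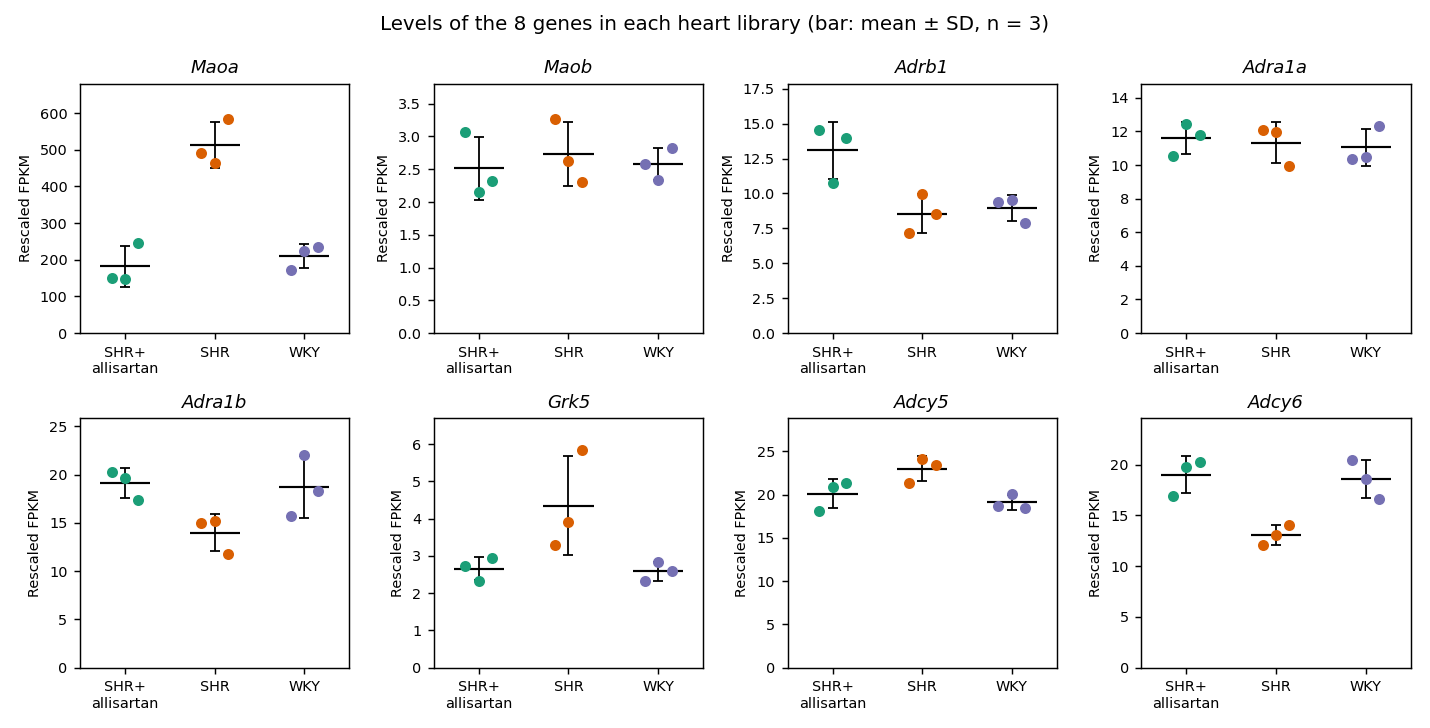
Rescaled FPKM (linear axis from 0) of each of the 8 genes in the 9 heart libraries, with points for libraries in replicate order, a line at the group mean and a bar of ± 1 SD (n = 3). Maoa lay at 464 to 585 in SHR and at 148 to 246 in treated SHR, and Adcy6 lay lower in SHR than in both other groups, while Maob and Adra1a overlapped in all 3 groups.

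Maoa, which oxidises noradrenaline and serotonin, had the highest level and the largest change of the 8 genes. Its libraries were at 151, 148 and 246 FPKM in treated SHR, at 491, 464 and 585 in SHR, and at 172, 223 and 236 in WKY. Every SHR library lay above every library of both other groups, and treated SHR and WKY overlapped. Maoa was higher in SHR than in WKY by 1.29 (log2, SE 0.188, adjusted p = 0.000983), which is 2.45-fold on this scale. In treated SHR it was lower than in SHR by a log2 change of -1.53 (SE 0.188, adjusted p = 0.000248), which is 0.346-fold. Both calls held in all 21 alternative settings. Treated SHR and WKY were at 182 ± 56.0 and 210 ± 33.8, a log2 change of -0.24 with a 95% confidence interval of -0.65 to 0.18 (adjusted p = 0.393). That comparison turned on treated SHR replicate 3, the library at 246: without it the change was -0.48 and was called (adjusted p = 0.0353, over a range of 0.0353 to 0.745 in the alternatives).

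Maob, the second monoamine oxidase, is encoded beside Maoa on the X chromosome of the rat, and oxidises phenylethylamine and dopamine. It was at 3.07, 2.16 and 2.33 FPKM in treated SHR, at 3.27, 2.63 and 2.31 in SHR, and at 2.58, 2.34 and 2.82 in WKY. The 3 groups overlapped, and no comparison was called. The 95% confidence interval of the log2 change was -0.43 to 0.23 for treated SHR minus SHR and -0.27 to 0.40 for SHR minus WKY, so a change of the size of that of Maoa lay outside both intervals. Within a library, the Maoa level was 49.2, 68.5 and 106 times that of Maob in treated SHR, 150, 176 and 254 times in SHR, and 66.7, 95.1 and 83.6 times in WKY. Every SHR ratio lay above all ratios of both other groups.

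The upstream sequences of this pair are shown because the neighbouring genes differed so far in level and in change. They are the 250 bases before the annotated start of each gene, from RefSeq on build GRCr8, which is of the Brown Norway strain and not of SHR or WKY. Maoa lies at chrX:8681373-8681622 on the minus strand and Maob at chrX:8490155-8490404 on the plus strand. Both are printed 5′ to 3′ along the gene, with capitals for the GC box (GGGCGG on either strand), the letters that the transcription factor Sp1 binds.
Maoa: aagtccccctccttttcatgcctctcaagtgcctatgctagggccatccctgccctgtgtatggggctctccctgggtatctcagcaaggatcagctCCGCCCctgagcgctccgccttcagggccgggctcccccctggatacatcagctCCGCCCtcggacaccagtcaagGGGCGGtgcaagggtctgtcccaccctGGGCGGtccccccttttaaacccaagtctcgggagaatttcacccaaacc
Maob: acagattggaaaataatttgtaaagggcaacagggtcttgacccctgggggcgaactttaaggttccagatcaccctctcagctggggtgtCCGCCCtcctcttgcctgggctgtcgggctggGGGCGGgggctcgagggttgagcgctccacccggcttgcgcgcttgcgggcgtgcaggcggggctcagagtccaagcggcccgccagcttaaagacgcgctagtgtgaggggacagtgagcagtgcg
The Maoa window holds 4 GC boxes and the Maob window 2, and at least 1 was found in 30.5% of 33469 rat windows of the same length. That share was not matched for G and C content, which was 62.4% for Maoa and 63.6% for Maob. The median over all windows was 51.2%. Neither window held a cAMP response element (TGACGTCA) or its core (TGACG, either strand), which were in 1.59% and 18.2% of all windows. Windows were found for 6 of the 8 genes, all but Adra1a and Adcy6. Of the other 4, Adcy5 had 3 GC boxes, and Adrb1, Adra1b and Grk5 had 0. A single TGACG was found in the window of Adrb1. These are letters in a window and were not tested against the measured changes.

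**Figure D2:**
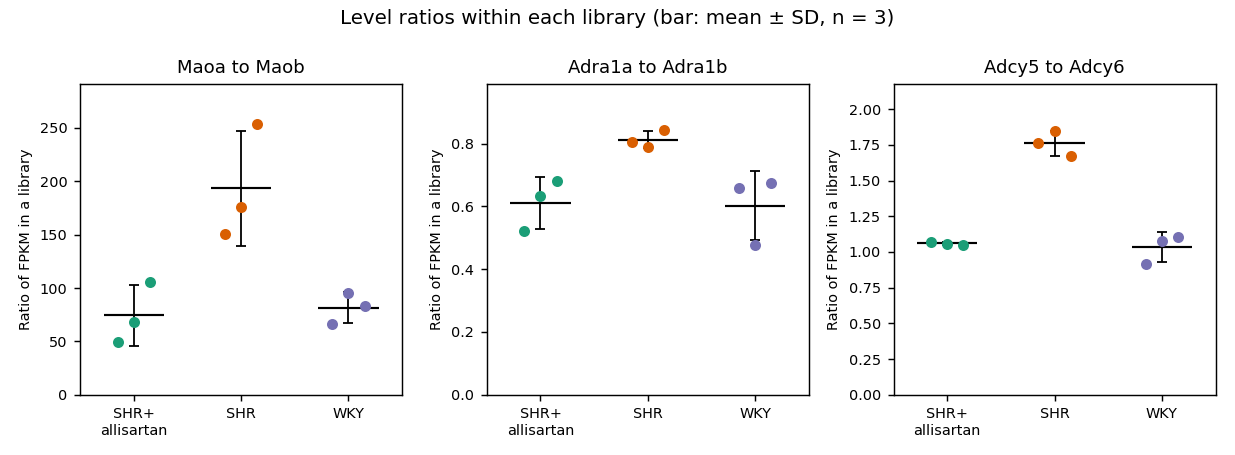
Ratio of the FPKM of paired genes within each library (linear axes from 0), with points for libraries, a line at the mean and a bar of ± 1 SD (n = 3). The Adcy5 to Adcy6 ratio lay at 1.67 to 1.85 in SHR, against 1.05 to 1.07 in treated SHR and 0.916 to 1.11 in WKY.

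Among the receptors, the beta-1 receptor gene Adrb1 stood out in treated SHR and not in SHR. It was at 14.6, 10.7 and 14.0 FPKM in treated SHR, at 7.18, 9.95 and 8.54 in SHR, and at 9.40, 9.53 and 7.89 in WKY. All treated SHR libraries lay above all others, and SHR and WKY overlapped. Adrb1 was higher in treated SHR than in SHR (log2 change 0.59, SE 0.142, adjusted p = 0.00982), and this call held in all 21 alternatives. It was also higher in treated SHR than in WKY, by 0.52 (SE 0.142, adjusted p = 0.0238). The call against WKY ended without treated SHR replicate 1 (adjusted p = 0.0775), treated SHR replicate 3 (0.0697) or WKY replicate 3 (0.0822), within a range of 0.0123 to 0.0822. For SHR minus WKY the log2 change was -0.07, with a 95% confidence interval of -0.38 to 0.25 (adjusted p = 0.783).

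The alpha-1B receptor gene Adra1b was lowest in SHR. Its levels were 20.3, 19.7 and 17.4 FPKM in treated SHR, 15.0, 15.2 and 11.8 in SHR, and 15.7, 22.0 and 18.3 in WKY. The SHR libraries lay below all others, the closest being 15.2 in SHR and 15.7 in WKY. Treated SHR was higher than SHR by 0.44 (log2, SE 0.133, adjusted p = 0.0266). That call ended without treated SHR replicate 1 (0.0805), treated SHR replicate 2 (0.0739) or SHR replicate 3 (0.0998). The alternatives spanned 0.0129 to 0.0998. SHR minus WKY was at -0.40 which was not called (adjusted p = 0.0536). A call was made in 4 of 21 alternatives, among them without WKY replicate 1 (0.0288) and with the trend over genomic span removed (0.0383), within 0.0288 to 0.188.

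The alpha-1A receptor gene Adra1a was nearly level. It was at 10.6, 12.5 and 11.8 FPKM in treated SHR, at 12.1, 12.0 and 9.94 in SHR, and at 10.3, 10.5 and 12.3 in WKY. All groups overlapped, and the 95% confidence interval of its log2 change was -0.20 to 0.27 between treated SHR and SHR, -0.21 to 0.27 between SHR and WKY, and -0.17 to 0.31 between treated SHR and WKY. The level of Adra1a relative to Adra1b in a library was 0.520 to 0.681 in treated SHR, 0.788 to 0.842 in SHR and 0.476 to 0.673 in WKY, so that Adra1b was the more abundant alpha-1 receptor transcript of this pair in all 9 libraries.

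Grk5, a kinase that phosphorylates active receptors and is also found in the nucleus, was highest in SHR. Its libraries were at 2.73, 2.32 and 2.93 FPKM in treated SHR, at 3.28, 3.91 and 5.83 in SHR, and at 2.32, 2.85 and 2.59 in WKY. The SHR libraries lay above all others, with SHR replicate 3 well above its group. Grk5 was 1.54-fold higher in SHR than in WKY (log2 change 0.62, SE 0.176, adjusted p = 0.0293) and was lower in treated SHR than in SHR, by a log2 change of -0.58 (SE 0.176, adjusted p = 0.0270). Both calls were lost in several alternatives. Without SHR replicate 3 the changes were 0.41 (adjusted p = 0.0921) and -0.37 (0.0860). The first call also ended without SHR replicate 2 (0.0540), WKY replicate 1 (0.0957), WKY replicate 2 (0.0517) or WKY replicate 3 (0.0664) and with no filter on low values (0.0589), within 0.0121 to 0.0957. The second ended without treated SHR replicate 1 (0.0544) or replicate 2 (0.0881) and with no filter (0.0551), within 0.0103 to 0.0881.

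The cyclases Adcy5 and Adcy6 are the main adenylyl cyclases of the cardiomyocyte. Adcy6 was called in both comparisons that involve SHR and Adcy5 in neither. Adcy6 was at 16.9, 19.7 and 20.3 FPKM in treated SHR, at 12.1, 13.1 and 14.0 in SHR, and at 20.4, 18.6 and 16.6 in WKY. Every SHR library lay below every other library. Adcy6 was lower in SHR than in WKY by a log2 change of -0.49 (SE 0.101, adjusted p = 0.00674), and higher in treated SHR than in SHR by 0.52 (SE 0.101, adjusted p = 0.00321). Both calls held in all 21 alternatives.

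Adcy5 was at 18.1, 20.9 and 21.3 FPKM in treated SHR, at 21.4, 24.1 and 23.4 in SHR, and at 18.7, 20.1 and 18.5 in WKY. SHR lay above both other groups, narrowly so above treated SHR. SHR minus WKY was 0.26 (log2, SE 0.0849, adjusted p = 0.0507), at the threshold, and passed in 9 of 21 alternatives, among them without SHR replicate 1 (0.0397) or treated SHR replicate 1 (0.0350) and with no rescaling (0.0377), within 0.0326 to 0.149. Treated SHR minus SHR was -0.19 (adjusted p = 0.111). Within a library, the ratio of Adcy5 to Adcy6 was 1.07, 1.06 and 1.05 in treated SHR, 1.76, 1.85 and 1.67 in SHR, and 0.916, 1.08 and 1.11 in WKY. Both transcripts were thus near equal in treated SHR and WKY, and Adcy5 was ahead in each SHR library.

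**Figure D3:**
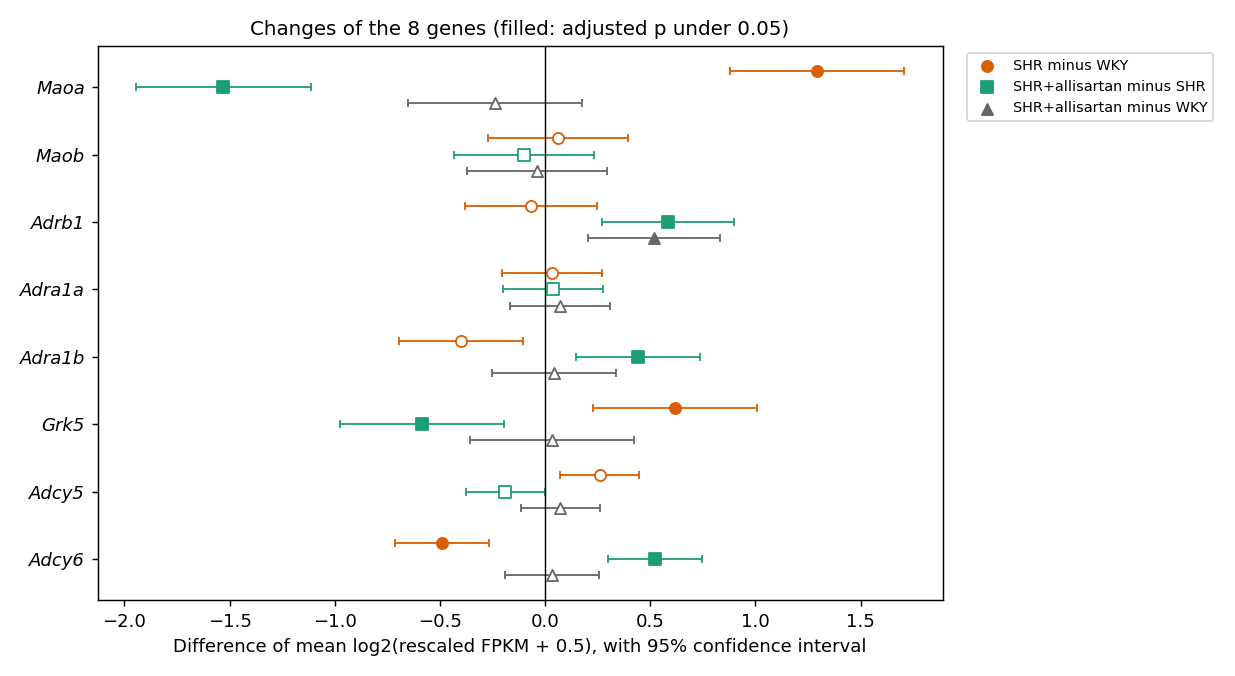
Differences of group means on the log2(rescaled FPKM + 0.5) scale for the 8 genes, with unadjusted 95% confidence intervals from limma, and filled symbols for an adjusted p under 0.05. Treated SHR minus WKY lies near 0 for every gene but Adrb1 (0.52) and Maoa (-0.24), whose interval includes 0.

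Set in order of level, Maoa was first in all 3 groups and Adcy5 next. In treated SHR and in WKY the libraries of Adcy5, Adra1b and Adcy6 overlapped, so their order there is not resolved, while in SHR Adcy5 lay clear of Adra1b and Adcy6. Adrb1 and Adra1a followed, overlapping in treated SHR and in SHR and not in WKY. Grk5 and Maob were last, and their libraries overlapped in treated SHR and WKY but not in SHR. Maoa exceeded 98.5% of all genes in the table in treated SHR, 99.6% in SHR and 98.7% in WKY.

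The genes with the most similar pattern were found by Pearson correlation of log2 values over the 9 libraries, among 10229 genes at a mean of 1 FPKM or more. The 9 libraries fall into 3 groups, so these values describe likeness across groups and carry no test. Nearest to Maoa were Timp1 (0.992), an inhibitor of matrix metalloproteinases, the actin crosslinker Flna (0.989) and transferrin, Tf (0.988). Nearest to Grk5 were Rab4b (0.974) and Gnao1 (0.967), the alpha subunit of the G protein Go, and nearest to Adcy6 were Gcsh (0.975), a subunit of the glycine cleavage system, and Nbn (0.956). For Adcy5 they were Csnk1d (0.977) and Lrrc45 (0.974), for Adrb1 Ilf2 (0.968) and Ahsa2 (0.959), and for Adra1b Igdcc4 (0.952). Maob was nearest to Man1c1 (0.964) and Adra1a to Pcdh19 (0.901).

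Markers of other cells differed between the same groups. The summed level of 8 macrophage markers was 200.2 to 245 FPKM in treated SHR, 378 to 449 in SHR and 136 to 155 in WKY, and that of 9 fibroblast markers 746 to 859, 1208 to 1288 and 808 to 887 in the same order of groups. Of the macrophage markers 0 rose and 6 fell in treated SHR against SHR, and 8 of 8 rose in SHR against WKY. Of the fibroblast markers 8 of 9 fell in treated SHR against SHR, and 6 rose in SHR against WKY. Of all tested genes 17.4% were called lower in the first of these comparisons and 11.9% higher in the second. The sum of 10 ventricular cardiomyocyte markers was 49916 to 51609 in treated SHR, 40861 to 41876 in SHR and 46069 to 50587 in WKY. Its members went both ways: 6 rose and 2 fell in treated SHR against SHR, and 1 rose and 5 fell in SHR against WKY. Actc1, cardiac actin, was at 6555 ± 469 in treated SHR, 9427 ± 325 in SHR and 7597 ± 157 in WKY, against the direction of the sum. Myh7, the beta myosin heavy chain, was at 1416 ± 85.9, 2338 ± 119 and 3056 ± 209 in the same order of groups. The parts of these differences in the changes of Maoa, Grk5, Adcy6 and Adra1b were not tested. Sums of 7 endothelial markers overlapped in all 3 groups (134 to 150, 127 to 140 and 130 to 150). Smooth muscle and pericyte markers summed to 293 to 375 in treated SHR, 338 to 362 in SHR and 229 to 294 in WKY. Schwann cell markers summed to 16.0 to 18.9, 8.08 to 20.0 and 7.31 to 11.7 in the same order. Of 6 adipocyte markers only Fabp4, which endothelial cells also express, passed the filter, at 905 ± 125 in treated SHR, 641 ± 64.5 in SHR and 785 ± 96.9 in WKY. Adipoq, Plin1, Cidec and Lep were at or near 0 and Adrb3 was listed at 0. Of the sympathetic neuron markers, Th, Npy and Slc6a2 were listed at 0 in all 9 libraries, and the sum of all 8 was 4.13 to 5.97 in treated SHR, 8.74 to 13.1 in SHR and 2.92 to 5.21 in WKY. Only Uchl1 and Prph passed the filter and made up most of that sum, with Uchl1 at 3.40 ± 1.03, 8.52 ± 1.48 and 3.11 ± 0.970 and Prph at 1.39 ± 0.180, 1.73 ± 0.498 and 0.836 ± 0.136 in the same order of groups. The 4 chromaffin or adrenal markers in the table summed to 0 to 1.46, 1.68 to 3.07 and 0.437 to 1.72 in that order, with Chga listed at 0 throughout and only Pnmt and Star past the filter.

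The rest of the pathway was read from 13 lists of other genes. In each comparison the median log2 change of all tested genes was near 0: -0.026 for treated SHR minus SHR, 0.011 between SHR and WKY, and -0.0095 between treated SHR and WKY. The shares of all tested genes called were 33.5%, 21.9% and 24.3% in the same order. Lists lay on both sides of them. Between treated SHR and SHR, 66.7% of the G protein list was called, 33.3% of the phosphodiesterases and 16.7% of the alpha-1 branch list.

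Of the 6 other adrenergic receptors, 3 passed the filter. Adra1d, the alpha-1D receptor, was at 1.10 ± 0.273 FPKM in treated SHR, 0.425 ± 0.214 in SHR and 1.33 ± 0.295 in WKY. It was higher in treated SHR than in SHR by 0.81 (adjusted p = 0.0134) and lower in SHR than in WKY by a log2 change of -0.99 (adjusted p = 0.00715). The first of these calls ended without treated SHR replicate 1 or SHR replicate 2, at an adjusted p of up to 0.0524. The alpha-2C receptor Adra2c was not called in any comparison.

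Genes of catecholamine synthesis and transport were mostly at the edge of detection, and 4 of 11 passed the filter. Slc22a3, the extraneuronal monoamine transporter OCT3, which brings catecholamines into cells where monoamine oxidases act, was at 5.57 ± 0.197 FPKM in treated SHR, 2.75 ± 0.725 in SHR and 6.01 ± 1.11 in WKY. It rose by 0.93 in treated SHR against SHR (adjusted p = 0.00255) and was at -1.01 in SHR against WKY (adjusted p = 0.00238), each the reverse of the direction of Maoa. Both calls held in all 21 alternatives. Ddc, the decarboxylase that makes dopamine, was at 1.88 ± 0.135 in SHR and 2.80 ± 0.128 in WKY (adjusted p = 0.00942). Pnmt, which turns noradrenaline into adrenaline, was at 1.55 ± 0.348 in SHR and 0.325 ± 0.211 in WKY (log2 change 1.33, adjusted p = 0.0379), and its call ended in 10 of 21 alternatives, at up to 0.122.

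The other enzymes of catecholamine breakdown did not move as a block. Of 8 tested, 1 rose and 3 fell in treated SHR against SHR (median -0.13), and 1 rose and 3 fell in SHR against WKY (median -0.04). Aldh2, a mitochondrial dehydrogenase of the aldehydes that monoamine oxidases produce, was at 307 ± 2.77, 338 ± 6.36 and 326 ± 26.3 and was not called in any comparison. The aldehyde reductase Akr1a1 was at 101 ± 4.05 in treated SHR and 149.7 ± 2.73 in SHR (adjusted p = 0.000263). Its relative Akr1b1 fell in treated SHR against SHR (log2 change -0.19, adjusted p = 0.0344, lost in 7 of 21 alternatives) and in SHR against WKY (-0.26, adjusted p = 0.0122). The sulfotransferase gene Sult1a1 rose by 0.81 in treated SHR against SHR (adjusted p = 0.000831) and was at -0.60 in SHR against WKY (adjusted p = 0.00676). In treated SHR against WKY 1 of the 8 rose and 3 fell, with Akr1a1 at -0.54 and Aldh1a1 at -0.61.

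Of the other receptor kinases and arrestins, 0 of 5 rose and 2 fell in treated SHR against SHR, and 0 of 5 were called in SHR against WKY or in treated SHR against WKY. Grk2, the best known receptor kinase of the heart, was at 10.3 ± 1.23 FPKM in treated SHR, 13.1 ± 0.769 in SHR and 10.8 ± 0.704 in WKY. Its treated SHR minus SHR change was -0.34 (adjusted p = 0.0253), a call that ended without treated SHR replicate 2, SHR replicate 1 or SHR replicate 3, at up to 0.0909. Arrb1, which encodes beta-arrestin 1, was at 5.10 ± 0.280 in treated SHR and 7.75 ± 1.15 in SHR (log2 change -0.55, adjusted p = 0.00628).

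Of 18 tested heterotrimeric G protein subunits, 3 rose and 9 fell in treated SHR against SHR (median -0.25), 5 rose and 2 fell in SHR against WKY (median 0.13), and 1 rose and 2 fell in treated SHR against WKY (median -0.03). Gnb3, a beta subunit, was at 34.3 ± 4.10 FPKM in treated SHR, 18.7 ± 1.31 in SHR and 31.0 ± 4.26 in WKY, with log2 changes of 0.86 for treated SHR minus SHR (adjusted p = 0.000403) and -0.71 for SHR minus WKY (adjusted p = 0.00188). The alpha subunit Gna12 was at 66.0 ± 1.09, 84.1 ± 4.37 and 63.4 ± 4.34 in the same order of groups. Gnai2, an inhibitory alpha subunit that lowers cyclase activity, was at 109 ± 4.36 in treated SHR, 108 ± 3.65 in SHR and 81.4 ± 3.83 in WKY. It was higher than in WKY in both SHR (log2 change 0.41, adjusted p = 0.00144) and treated SHR (0.42, adjusted p = 0.00125), and treated SHR minus SHR was 0.0074. The beta subunit Gnb2 fell in treated SHR against SHR (-0.54, adjusted p = 0.00239).

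Among 9 tested regulators of G protein signalling, 2 rose in treated SHR against SHR, 1 fell in SHR against WKY and 2 rose in treated SHR against WKY. Rgs6, which speeds the shut-off of inhibitory G proteins, was at 16.6 ± 0.217 FPKM in treated SHR, 9.38 ± 1.66 in SHR and 12.8 ± 1.32 in WKY. It rose by 0.81 in treated SHR against SHR (adjusted p = 0.000769) and was at -0.44 in SHR against WKY (adjusted p = 0.0262), a call that ended without SHR replicate 3, WKY replicate 2 or WKY replicate 3, at up to 0.0970. Rgs2, which acts on Gq, rose by 0.46 in treated SHR against SHR (adjusted p = 0.0213, and up to 0.0814 without single libraries).

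Of the other adenylyl cyclases, 5 of 8 were tested and 1 was called. Adcy7, which is known mainly from blood and immune cells, was at 0.334 ± 0.0831 FPKM in treated SHR, 1.08 ± 0.0122 in SHR and 0.290 ± 0.105 in WKY. It fell in treated SHR against SHR by a log2 change of -0.92 (adjusted p = 0.00171) and rose in SHR against WKY by 1.01 (adjusted p = 0.00172). Adcy7 passed the filter on low values through its SHR libraries alone. Had it been as low in SHR as in the other groups, it would not have been tested. Macrophage marker sums were also highest in SHR, as given above, and their part in the level of Adcy7 was not tested.

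**Figure D4:**
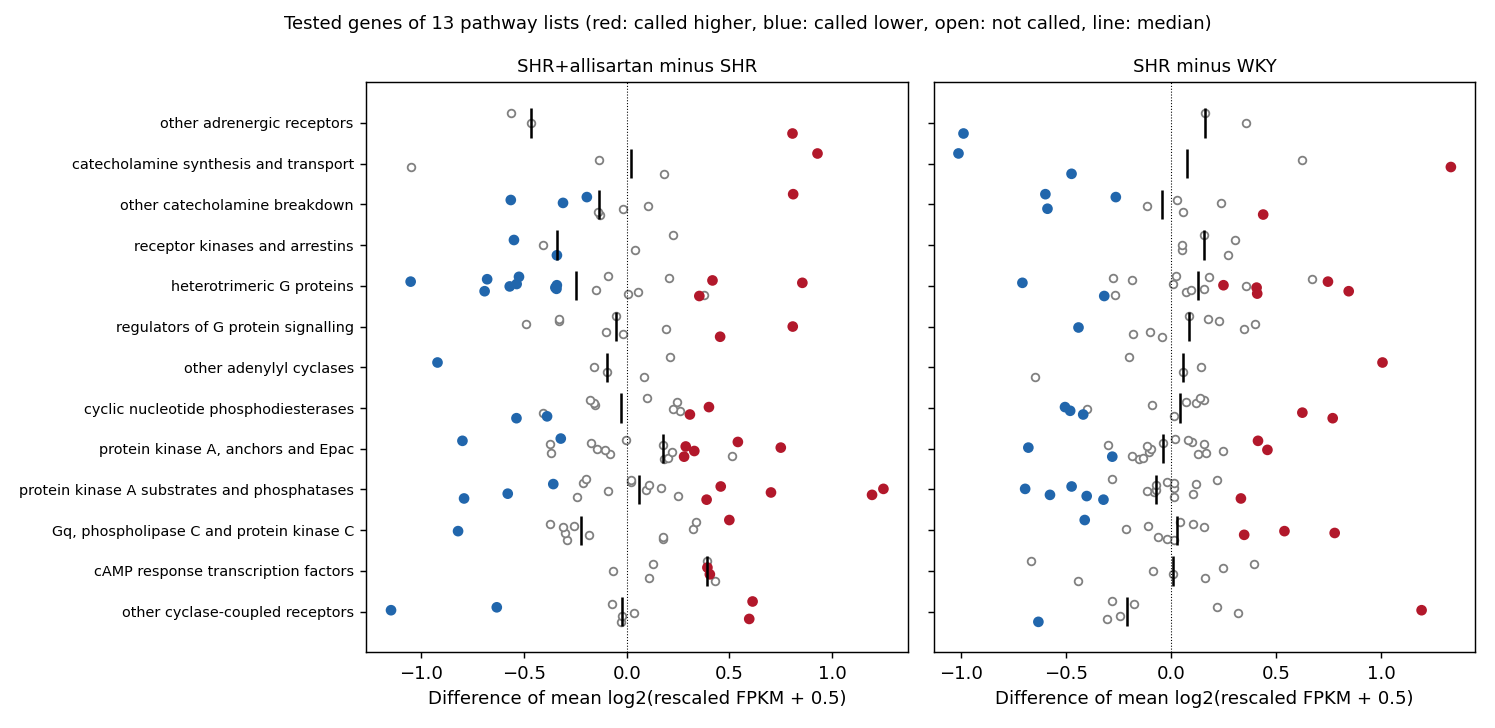
Log2 change of each tested gene in 13 lists of adrenergic pathway genes, for treated SHR minus SHR (left) and SHR minus WKY (right), which share the SHR libraries; filled points were called at an adjusted p under 0.05 and a vertical line marks the median of a list. Of 18 G protein subunits, 3 were called higher and 9 lower in treated SHR than in SHR. Of all tested genes, 16.1% were called higher and 17.4% lower there.

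Phosphodiesterases, which break down cyclic AMP and cyclic GMP, went both ways: of 12 tested, 2 rose and 2 fell in treated SHR against SHR, 2 rose and 3 fell in SHR against WKY, and 0 rose and 1 fell in treated SHR against WKY. Pde3a, the main cyclic AMP phosphodiesterase target of inotropic inhibitors, was at 31.4 ± 3.13 FPKM in treated SHR, 25.2 ± 1.77 in SHR and 33.9 ± 1.67 in WKY. Its SHR minus WKY change was -0.42 (adjusted p = 0.00744), and its treated SHR minus SHR change of 0.31 (adjusted p = 0.0220) lost the call in 7 of 21 alternatives, at up to 0.0841. Pde2a fell in treated SHR against SHR (log2 change -0.39, adjusted p = 0.0114). Pde1a was at 2.01 ± 0.111 in treated SHR, 3.17 ± 0.575 in SHR and 1.69 ± 0.577 in WKY, and its call between treated SHR and SHR (adjusted p = 0.0463) held in 9 of 21 alternatives.

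Of 19 tested genes of protein kinase A, its anchoring proteins and Epac, 5 rose and 2 fell in treated SHR against SHR (median 0.18), 2 rose and 2 fell in SHR against WKY (median -0.04), and 3 rose and 2 fell in treated SHR against WKY. The anchor gene Akap7, whose product tethers the kinase at the sarcoplasmic reticulum, was at 11.4 ± 1.44 FPKM in treated SHR, 6.55 ± 0.397 in SHR and 10.8 ± 0.384 in WKY. It rose by 0.75 in treated SHR against SHR (adjusted p = 0.000364) and was at -0.68 in SHR against WKY (adjusted p = 0.000983). Akap13 was at 8.51 ± 0.301, 15.2 ± 1.06 and 11.3 ± 0.496 in the same order, with log2 changes of -0.80 (adjusted p = 8.78e-05) and 0.41 (adjusted p = 0.00516). Akap1, a mitochondrial anchor, was at 51.7 ± 1.79 in treated SHR, 55.7 ± 0.575 in SHR and 40.5 ± 1.59 in WKY and was called only against WKY, for SHR (0.46, adjusted p = 0.000624) and for treated SHR (0.35, adjusted p = 0.00278). Pkig, an inhibitor of the kinase, was at 17.3 ± 1.66 in treated SHR and 11.4 ± 0.118 in WKY (log2 change 0.58, adjusted p = 0.00123).

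Among 18 tested substrates of the kinase and phosphatases that reverse it, 5 rose and 3 fell in treated SHR against SHR (median 0.06), 1 rose and 5 fell in SHR against WKY (median -0.07), and 3 rose and 3 fell in treated SHR against WKY. Tnni3, cardiac troponin I, was at 10781 ± 1224 FPKM in treated SHR, 4698 ± 335 in SHR and 7011 ± 492 in WKY. Its SHR minus WKY change of -0.58 (adjusted p = 0.00218) was no longer called with quantile normalization (0.109). The sodium pump regulator Fxyd1, phospholemman, rose by 0.70 in treated SHR against SHR (adjusted p = 2.74e-05), and the myosin-binding protein gene Mybpc3 fell by 0.58 on the log2 scale (adjusted p = 8.27e-05). Ppp1r1a, which encodes an inhibitor of protein phosphatase 1, was at 1.87 ± 0.448 in SHR and 3.30 ± 0.115 in WKY (adjusted p = 0.0131, and 0.0564 without SHR replicate 3). Camk2d, a kinase gene of this list, was listed at 0 in all 9 libraries, and a 0 in this table can be a failed estimate.

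On the alpha-1 branch, 1 of 12 tested genes of phospholipase C, protein kinase C and their partners rose and 1 fell in treated SHR against SHR (median -0.22), 3 rose and 1 fell in SHR against WKY (median 0.03), and 0 of 12 were called in treated SHR against WKY. Prkcd, protein kinase C delta, was at 4.35 ± 0.705 FPKM in treated SHR, 8.02 ± 0.631 in SHR and 5.37 ± 0.516 in WKY, with log2 changes of -0.82 (adjusted p = 0.000676) for treated SHR minus SHR and 0.54 (adjusted p = 0.0104) for SHR minus WKY. Prkcb rose by 0.78 in SHR against WKY (adjusted p = 0.00964). Of 7 cyclic AMP response factors, 2 rose in treated SHR against SHR and also against WKY, and 0 were called in SHR against WKY. These were Atf1, at 23.4 ± 2.58 in treated SHR, 17.4 ± 0.429 in SHR and 17.4 ± 1.39 in WKY, and the coactivator gene Crtc2, at 8.34 ± 0.343, 6.24 ± 0.531 and 5.19 ± 0.544. Crtc2 just missed the threshold against SHR without SHR replicate 2 (adjusted p = 0.0511).

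Of 8 tested receptors of other hormones that act on cyclases, 2 rose and 2 fell in treated SHR against SHR, 1 rose and 1 fell in SHR against WKY, and 1 fell in treated SHR against WKY. Chrm2, the muscarinic receptor through which the vagus nerve opposes beta-adrenergic drive, was at 23.6 ± 3.14 FPKM in treated SHR, 23.9 ± 0.135 in SHR and 37.3 ± 1.35 in WKY. It was lower than in WKY in both SHR (log2 change -0.63, adjusted p = 0.000846) and treated SHR (-0.66, adjusted p = 0.000661), and treated SHR minus SHR was -0.026, with an adjusted p of 0.852. The prostaglandin receptor gene Ptger3 was at 0.203 ± 0.136, 1.08 ± 0.406 and 0.179 ± 0.105 in the same order of groups. It passed the filter on low values through its SHR libraries alone.

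The pathway annotation deposited with the table gives a wider view. Without the 8 genes, 104 tested genes carried the term adrenergic signaling in cardiomyocytes. Of these, 21 were called higher and 17 lower in treated SHR than in SHR (36.5%, against 33.5% of all tested genes), 13 higher and 17 lower in SHR than in WKY (28.8%, against 21.9%), and 15 higher and 9 lower in treated SHR than in WKY (23.1%, against 24.3%). Their median changes were 0.018, -0.0098 and -0.0027. The same 3 comparisons were read for 18 tested tyrosine metabolism genes. In turn, 4 rose and 3 fell (38.9%), 5 rose and 5 fell (55.6%), and 6 rose and 1 fell (38.9%). Of 115 tested cAMP signaling genes, 21 rose and 25 fell (40.0%), 17 rose and 20 fell (32.2%), and 11 rose and 16 fell (23.5%). The shares of all tested genes to set beside these are those given for the first term.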

How the data were processed

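The 9 heart libraries (3 per group) came from mRNA prepared with a TruSeq stranded kit, per the labels' protocols. Tools named without role or version, per the submitters' processing notes, are DESeq, HTSeq, Cufflinks, HISAT2 and Trimmomatic, on build Rnor_6.0. The authors deposited an FPKM value per gene and library. Such values depend on the gene models and on estimated transcript lengths. At very low FPKM, part of the values lay at common steps, but whole fragments could not be recovered, so depth is unknown and no counting interval is given.

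Symbols of 27 genes turned into dates were restored by gene identifier, with 20633 of 22601 genes (91.3%) matched to RefSeq. Each library was divided by a median-of-ratios factor (0.965 to 1.04, from the 9194 genes that reached 1 FPKM everywhere). Genes at 0.5 or more in at least 3 libraries were tested. R 4.3.3 with limma 3.58.1 fitted group means of log2(FPKM + 0.5) to all 9 libraries (6 residual degrees of freedom, variance trend), with two-sided p-values adjusted by Benjamini-Hochberg within each of 3 comparisons. On simulated data of 11717 genes, log2 changes of 0.5, 1 and 2 were recovered at 34.3%, 77.6% and 95.5% for SHR minus WKY, in 35.8%, 85.1% and 98.5% for treated SHR minus SHR, and in 53.7%, 94.0% and 100.0% for treated SHR minus WKY. All 3 simulations used the same gene means and spreads, so differences in recovery between comparisons come from the random draw. Far fewer genes were changed in them than were called in the data, so recovery in the data may differ. Plots used matplotlib 3.10.9 under Python 3.11.15.

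The 8 genes and the lists were chosen with earlier results of these data known. The rule for names took the 8 genes in each comparison, up to 3 called genes with the smallest p per list, or the most abundant where none was called, and the nearest genes by correlation. Aldh2, Adra2c and genes listed at 0 are given beyond it, after their values were seen, as are some named genes in comparisons where the rule did not pick them, and the deposited annotation terms. Some list genes are not reported here by name. The alternatives were 3 other scalings, removal of the trend with genomic span (98.2% of tested genes), pseudocounts of 1 and 0.1, 2 other filters on low values, robust moderation, array weights, a replicate block, the 6 libraries of a comparison, and leaving out each library.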

Additional observations from a re-analysis of the deposited data

How the results depend on the processing

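Among the 8 genes, no called change turned its direction in any of the 21 alternatives. The calls of Maoa and Adcy6 in both comparisons that involve SHR, and of Adrb1 between treated SHR and SHR, held in all of them. Array weights and the replicate block each called 5 of the 8 genes between SHR and WKY (3 higher, 2 lower), against 3. No pairing of libraries by the replicate numbers of the titles was seen over all tested genes together. Same-numbered libraries correlated at -0.0623 to 0.0828 in their deviations from group means, and other pairs at -0.0694 to 0.0640. A pairing that touches only part of the genes could go unseen this way. The block gave Adra1b -0.40 (adjusted p = 0.0407) and Adcy5 0.26 (adjusted p = 0.0389) in that comparison. Leaving out single libraries gave calls over all genes of 2886 to 3841 for treated SHR minus SHR, 1583 to 2628 for SHR minus WKY, 1907 to 2769 for treated SHR minus WKY, and calls among the 8 genes of 3 to 5 for treated SHR minus SHR, 2 to 4 for SHR minus WKY, 0 to 1 for treated SHR minus WKY. Without SHR replicate 3 the calls over all genes fell to 1583 between SHR and WKY. Calls among the 8 genes between treated SHR and SHR were 3 without treated SHR replicate 1, treated SHR replicate 2 or SHR replicate 3, where Adra1b and Grk5 were lost. Uncalled changes that crossed 0 were all small. They were, for treated SHR minus SHR, Adra1a at -0.022 with no rescaling, and for treated SHR minus WKY, Adcy6 at -0.0070 with quantile normalization and Grk5 at -0.014 with array weights. Without single libraries the ranges were, for treated SHR minus SHR, Adra1a from -0.051 to 0.101, Maob from -0.228 to 0.014; for SHR minus WKY, Maob from -0.053 to 0.160, Adrb1 from -0.176 to 0.046, Adra1a from -0.015 to 0.120; for treated SHR minus WKY, Adra1b from -0.074 to 0.164, Maob from -0.165 to 0.046, Grk5 from -0.029 to 0.115, Adcy6 from -0.042 to 0.111. With no rescaling, higher genes made up 64.6% of all calls between SHR and WKY (54.6% as reported) and 38.1% between treated SHR and SHR (48.1% as reported). Of the list genes called, 30 of 50 between treated SHR and SHR, 19 of 38 between SHR and WKY and 17 of 24 between treated SHR and WKY were called in every alternative that tested them, and none of the called genes changed direction. Prkcb, Ptger3 and Gcgr were tested in 20 of the 21. The level ratios of paired genes moved by less than 1 SD under quantile and cyclic loess normalization. The other settings could not show a larger move. A factor per library cancels in a ratio, and leaving out 1 of 3 libraries always shifts a mean by less than 1 SD. Genes that did not reach 0.5 FPKM in at least 3 libraries, such as most of those of catecholamine synthesis and transport, could not be compared. Some tested genes had a group mean below 0.5 FPKM, such as Adra1d in SHR and Pnmt in WKY. The size of their changes depends on the pseudocount.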
